A study of Mus musculus with 2 samples.

Results

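Dystonia is a movement disorder of sustained or patterned muscle contraction, and mutations in a set of otherwise unrelated genes cause inherited forms of it. The genes described here are the mouse versions of 7 of them, Hpca, Ano3, Prrt2, Tor1a, Thap1, Sgce and Gch1, together with Tor1b, the close paralogue that lies beside Tor1a. They were taken as a fixed list of symbols, drawn up with earlier results of these data known, and all 8 were found among the 32531 gene symbols counted. At a level of at least 1 CPM (reads per 1000000 reads in genes) in both libraries, 7 of the 8 were detected, among 12374 detected genes in all. Gch1 was the exception.

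The RNA came from the ventral striatum of adult control mice of the Stard5-EGFP/Rpl10a line JX5852, which received no treatment. In such a line, regulatory sequence of Stard5 drives Rpl10a, a protein of the large ribosomal subunit, fused to the green fluorescent protein EGFP. Translating ribosome affinity purification (TRAP) pulls the tagged ribosomes out of tissue lysate with antibodies against EGFP, and the RNA bound to them is sequenced. The series holds 2 libraries of pulled-down RNA, replicate 1 and replicate 2 of 1 group, and no input RNA, second line or second condition was analysed here. Enrichment over whole tissue and effects of a condition could therefore not be computed. The labels do not say which cells carry the tag in this line and give neither sex nor exact age. They also leave out whether the replicates are different animals, so the spread between the libraries may be technical, and p-values measure only the difference between these libraries.

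The striatum is the input station of the basal ganglia, and most of its neurons are spiny projection neurons that receive glutamate from the cortex and thalamus and dopamine from the midbrain. Many dystonia genes act on this circuit, through dopamine synthesis, through the signalling that dopamine receptors start, or through calcium and transmitter release, while others act in general processes such as folding in the endoplasmic reticulum or transcription. The cell bodies of the dopamine neurons lie in the midbrain, outside the dissected tissue.

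The libraries held 25830282 and 29574781 reads in genes, so that 1 CPM was 25.8 and 29.6 reads. The ribosomal RNA precursor Rn45s took 6.89% and 6.21% of these reads. All 13 spiny projection neuron markers were detected, and 12 of them were lower in replicate 2 (median log2 ratio -0.48, summed level 11275 and 8213 CPM). All 10 astrocyte markers were detected and higher in replicate 2 (median log2 ratio 1.59, summed level 929 and 3081 CPM). The 9 oligodendrocyte markers were also all higher in replicate 2 (942 and 1441 CPM), and 7 of 8 microglial markers were lower (190 and 140 CPM). Markers of cholinergic interneurons summed to 130 and 134 CPM, but these close sums came from shifts in opposite directions. Of the 5 detected, 4 were higher in replicate 2 and 1, Isl1, was lower (log2 ratio -1.51). Their median log2 ratio was 0.38. Markers of GABAergic interneurons summed to 117 and 198 CPM with Vip at 0 reads. Those of glutamatergic neurons summed to 17.8 and 40.5 CPM with Emx1 at 0 reads. Those of endothelial and mural cells summed to 35.4 and 54.3 CPM. The libraries thus differed in markers of neurons and of glia. Levels are given for each library or as a mean with its SD over the libraries.

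The 8 genes ranged from among the highest levels in this RNA to below detection. Levels of different genes were compared as TPM, which divides the reads by the exon length of the gene before scaling them to a sum of 1000000, and the 7 detected genes lay between 9.24 and 3694 TPM. By mean TPM the order was Hpca, Ano3, Prrt2, Thap1, Tor1a, Sgce, Tor1b and Gch1. Hpca stood at 8.07 times the mean TPM of Ano3, and Prrt2 at 12.3 times that of Thap1, with no overlap of the library values at either step. Within the order, Ano3 and Prrt2 overlapped, as did each neighbouring pair among Thap1, Tor1a and Sgce, so these neighbours did not differ beyond their spread. Tor1b lay below Sgce by a factor of 1.85 without overlap. Hpca, Ano3 and Prrt2 exceeded 100 CPM, and the median TPM of all detected genes, 30.5, lay between their mean TPM and that of the other 5. The place of Sgce turned on the length used. Over the longest protein-coding transcripts it had 93.0 ± 14.5 TPM, above Thap1, Tor1a and Tor1b without overlap.

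**Figure D1:**
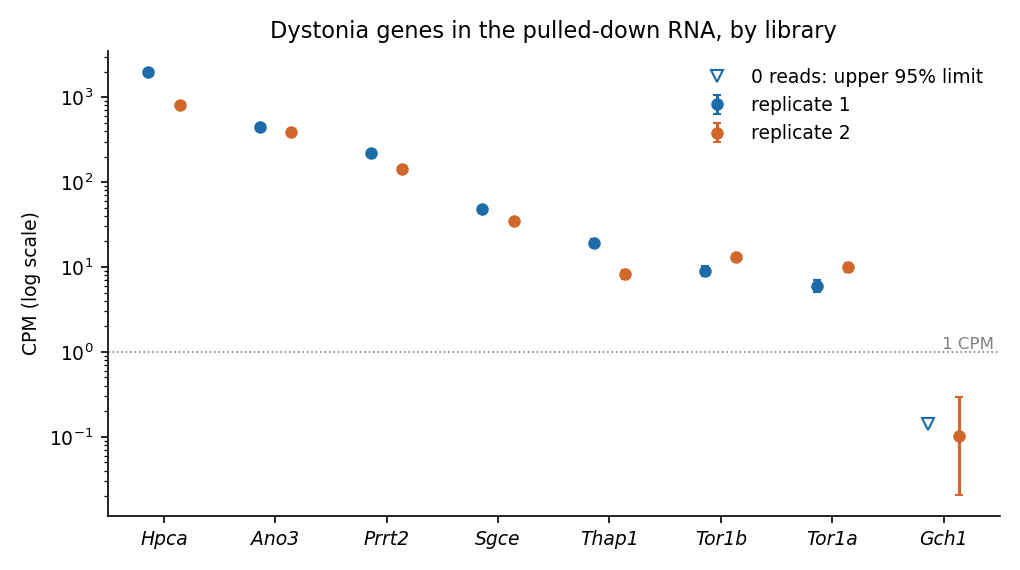
Level of each of the 8 genes in CPM (log scale) in replicate 1 (blue) and replicate 2 (orange), with exact Poisson 95% intervals that cover counting error only; the open triangle is the upper limit for 0 reads. Hpca, Ano3 and Prrt2 sit above 100 CPM in both libraries, 4 genes lie between 5.92 and 48.3 CPM, and Gch1 lies below 1 CPM.

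Whether each gene's level was stable between the libraries was asked with a 2-sided exact binomial test on its reads, with TMM library sizes, a scaling that takes the bulk of genes as equal between the libraries. A gene passed with a Benjamini-Hochberg adjusted p below 0.05 over all 12374 detected genes and a ratio of at least 2-fold. The test compares these libraries by counting error only and says nothing of conditions. Of the 7 detected genes, 2 passed, Hpca and Thap1, both higher in replicate 1. Among all tested genes 17.4% passed, 7.78% higher in replicate 1 and 9.57% higher in replicate 2. With no minimum ratio all 7 passed, against 78.9% of all tested genes. The median log2 ratio of replicate 2 over replicate 1 was -0.45 over the 7 genes and 0.00 over all tested genes, and the median absolute log2 ratio was 0.59 and 0.45. Hpca, Ano3, Prrt2, Sgce and Thap1 were lower in replicate 2, and Tor1a and Tor1b were higher. In bulk RNA, fewer cells of a type and less RNA per cell cannot be told apart, and the part of the shifts in neuronal and glial markers in these ratios was not tested.

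**Figure D2:**
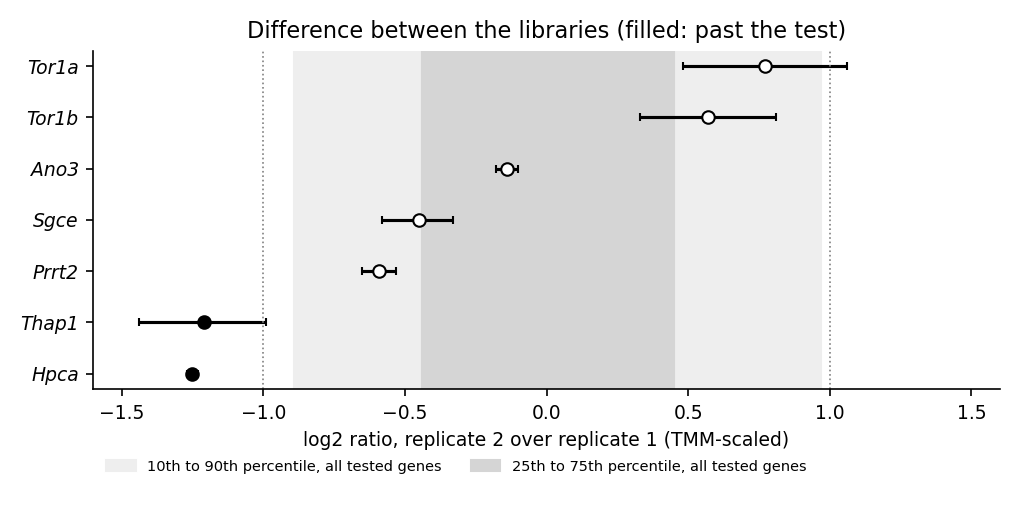
Log2 ratio of replicate 2 over replicate 1 for the 7 detected genes, TMM-scaled, with exact 95% intervals; filled points passed the test, dotted lines mark a 2-fold ratio, and grey bands hold the middle of all tested genes from the 25th to the 75th and from the 10th to the 90th percentile. Hpca (-1.25) and Thap1 (-1.21) lie below the 10th percentile (-0.89), and Tor1a (0.77) and Tor1b (0.57) lie above the 75th (0.45).

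Hpca encodes hippocalcin, a calcium sensor of the neuronal calcium sensor family that moves to membranes when calcium rises, and recessive mutations in the human gene cause isolated dystonia. The gene lies on chromosome 4 from 129111570 to 129122036 on the minus strand (GRCm38, ENSMUSG00000028785.13), and its longest protein-coding transcript has 6 exons. It held 50887 reads in replicate 1, or 1970 CPM (exact Poisson 95% interval 1953 to 1987), and 24063 reads in replicate 2, or 814 CPM (803 to 824). The mean was 1392 ± 818 CPM (SD, n = 2), and the mean TPM of 2691 ± 1418 exceeded that of 99.8% of detected genes. Replicate 1 was the higher library by far: the log2 ratio was -1.25 (-1.27 to -1.23), a 2.38-fold difference, and the adjusted p of the exact binomial test was too small to be stored as a number above 0. That ratio was larger in size than that of 89.2% of tested genes. Beside it, the 12 spiny neuron markers that were lower in replicate 2 included Tac1, encoding the precursor of substance P, at a log2 ratio of -1.28 (359 and 145 CPM), and Drd1, encoding a dopamine receptor, at -0.17 (286 and 250 CPM).

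Among the 12 other genes listed as neuronal calcium sensors and relatives, 9 were detected, and 8 of these were lower in replicate 2 (median log2 ratio -0.33). Of the 9, 2 passed the test, against 17.4% of all tested genes. Kcnip1, encoding a potassium channel subunit, passed the test in the same direction as Hpca (log2 ratio -1.05), and Hpcal1, a close hippocalcin paralogue, passed in the opposite direction (1.23). In TPM over all exons, Hpca had 3694 and 1689, Vsnl1, encoding visinin-like protein, 2674 and 2302, and Hpcal4 1862 and 1748. Hpca was thus the highest of the family in replicate 1, and its place in replicate 2 turned on the length used. Over the longest protein-coding transcripts it was the highest in replicate 2 as well, at 1873 TPM against 1659 for Vsnl1 and 1326 for Hpcal4. Its share of all reads of the 13 genes was 35.4% in replicate 1 (35.1 to 35.6, Clopper-Pearson 95% interval) and 22.0% in replicate 2 (21.7 to 22.2). Over all exons Kcnip3 (238 ± 45.5 TPM) and Kcnip2 (220 ± 22.0 TPM) came next by mean. Ncs1 was close, at 218 ± 3.53 TPM, and was above both in replicate 2 (216 against 206 and 204 TPM). Guca1a, a sensor of photoreceptors, had 0 reads in both libraries. Reads that fit a paralogue equally well may be lost or split in counting. The coding sequence of Hpca was 86.1% identical to that of Hpcal1, with a longest identical run of 38 bases, and 80.0% identical to that of Ncald, with a run of 46 bases.

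Ano3 encodes anoctamin 3, a member of a family of calcium-activated chloride channels and lipid scramblases, and dominant mutations in the human gene cause craniocervical dystonia with tremor. It lies on chromosome 2 from 110655201 to 110950923 on the minus strand (ENSMUSG00000074968.11), with 27 exons in its longest protein-coding transcript. Replicate 1 held 11433 reads, 443 CPM (435 to 451), and replicate 2 held 11663 reads, 394 CPM (387 to 402). The mean was 418 ± 34.1 CPM, or 334 ± 3.26 TPM, above 95.8% of detected genes. Of the 7 detected genes Ano3 differed least between the libraries, with a log2 ratio of -0.14 (-0.18 to -0.10) and an adjusted p of 3.72e-13 by the exact binomial test, a 1.10-fold difference that did not reach the required ratio. Only 17.4% of tested genes had a smaller ratio in size.

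Ano3 made up most anoctamin reads. It took 86.1% (85.5 to 86.7) of the reads of the 10 anoctamin genes in replicate 1 and 85.8% (85.2 to 86.4) in replicate 2, and per kilobase of exon 85.5% and 85.9%. The next in TPM over all exons were Ano2, an olfactory and neuronal chloride channel, at 17.7 ± 1.74, Ano4 at 13.3 ± 0.0341 and Ano6, the scramblase of platelets, at 9.73 ± 0.761. Of the 9 other anoctamins 6 were detected and tested, and 2 of the 6 passed the test between the libraries where 17.4% of all tested genes did, Ano7 lower in replicate 2 (242 and 41 reads) and Ano5 higher (52 and 165 reads), and their median log2 ratio was -0.02. Ano1 (4 and 32 reads) and Ano10 (25 and 69 reads) reached 1 CPM in replicate 2 alone and were not tested, and Ano9 had 0 reads in both libraries. The coding sequences of Ano3 and Ano4 were 68.6% identical with no identical run longer than 18 bases.

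Prrt2 encodes a membrane protein of presynaptic terminals that binds SNARE proteins, which drive vesicle fusion, and voltage-gated sodium channels. Its loss in people causes paroxysmal kinesigenic dyskinesia, brief attacks of dystonia or chorea set off by movement. The gene lies on chromosome 7 from 127017531 to 127021211 on the minus strand (ENSMUSG00000045114.10). It held 5669 reads in replicate 1, 219 CPM (214 to 225), and 4242 in replicate 2, 143 CPM (139 to 148), with a mean of 181 ± 53.8 CPM. Per length it had 381 and 275 TPM, so that it stood above Ano3 in replicate 1 (336 TPM) and below it in replicate 2 (331 TPM). The log2 ratio was -0.59 (-0.65 to -0.53), with an adjusted p of 2.09e-89 by the exact binomial test and short of the required ratio. In the GENCODE M21 annotation 92.4% of its exon bases also belong to a read-through gene, Gm42742, which was not among the symbols counted.

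All 12 genes listed as PRRT2 partners were detected, and none passed the test between the libraries, where 17.4% of all tested genes did. In replicate 2, 4 were lower and 8 higher, and their median log2 ratio was 0.17. The SNARE genes Snap25 (7379 and 4832 TPM) and Vamp2 (1990 and 1279 TPM) had log2 ratios of -0.73 and -0.76, in the same direction as Prrt2. Syt1, encoding the fast calcium sensor of release, had 682 and 754 TPM with a log2 ratio of 0.02. Syt2, the calcium sensor of fast hindbrain and spinal synapses, was the lowest of the list at 11.9 ± 5.14 TPM.

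Tor1a encodes torsinA, an ATPase in the lumen of the endoplasmic reticulum and nuclear envelope, and loss of a single glutamic acid codon from the human gene causes the early-onset dystonia DYT1. Tor1b encodes torsinB, the paralogue that can stand in for torsinA in tissues where it is abundant. The genes lie tail to tail on chromosome 2, Tor1b on the plus strand from 30952959 to 30959015 (ENSMUSG00000026848.14) and Tor1a on the minus strand from 30960627 to 30967933 (ENSMUSG00000026849.18), with 1611 bases between their ends and no shared exon bases in the annotation. Since reads of such paralogues can be told apart only where they differ, 2 stretches of each coding sequence are shown, from the GENCODE M21 transcripts of GRCm38. In the first, 60 bases long, the capitals mark the codon pair, starting at codon 303 of Tor1a and codon 309 of Tor1b, at the place of the DYT1 deletion, and 49 of the 60 bases are identical.
Tor1a: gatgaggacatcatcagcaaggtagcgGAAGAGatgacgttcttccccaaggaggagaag
Tor1b: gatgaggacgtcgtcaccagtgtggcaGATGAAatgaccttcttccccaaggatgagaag
In the other, the capitals mark the longest run shared without a mismatch, 30 bases, starting at coding base 603 of Tor1a and 621 of Tor1b.
Tor1a: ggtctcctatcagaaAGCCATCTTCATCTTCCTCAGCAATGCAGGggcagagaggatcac
Tor1b: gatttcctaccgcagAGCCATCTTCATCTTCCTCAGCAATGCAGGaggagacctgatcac
Over the aligned coding sequence the genes were 71.4% identical.

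Both torsins had few reads, and both were higher in replicate 2. Tor1a held 153 reads, 5.92 CPM (5.02 to 6.94), in replicate 1 and 293 reads, 9.91 CPM (8.81 to 11.1), in replicate 2. Its mean TPM of 23.2 ± 9.79 exceeded that of 42.5% of detected genes, and its log2 ratio was 0.77 (0.48 to 1.06), 1.70-fold, with an adjusted p of 1.10e-07 by the exact binomial test. Tor1b held 232 reads, 8.98 CPM (7.86 to 10.2), and 386 reads, 13.1 CPM (11.8 to 14.4). It had 9.24 and 14.9 TPM, a mean above 26.0% of detected genes, and its log2 ratio was 0.57 (0.33 to 0.81), 1.48-fold, with an adjusted p of 3.41e-06 by the same exact test. Neither reached the required 2-fold ratio, and the intervals of the ratios overlapped.

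Tor1a made up 39.7% (34.8 to 44.8) of the reads of the pair in replicate 1 and 43.2% (39.4 to 47.0) in replicate 2, intervals that overlapped. Tor1b is annotated with 5327 exon bases and Tor1a with 1995, and per kilobase of exon the share of Tor1a was 63.8% and 67.0%. Which torsin was the more abundant thus turned on the length correction: Tor1b had more reads, and Tor1a more reads per kilobase. Against the longest protein-coding transcripts, 1401 and 3039 bases, the share was 58.9% and 62.2%. The other torsins were lower still in TPM, Tor2a at 3.34 and 5.65, Tor3a at 0.436 and 4.90, and Tor4a at 0.257 and 0 with 4 and 0 reads.

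Of the 15 other torsin and nuclear envelope genes 12 were detected and tested, and none of the 12 passed the test between the libraries, against 17.4% of all tested genes. Tor3a, with 8 and 93 reads, was left untested by the requirement of 1 CPM in both libraries. The median log2 ratio of the 12 was 0.01, with 6 lower and 6 higher in replicate 2. Tor1aip1 and Tor1aip2 encode LAP1 and LULL1, the membrane proteins that switch on the ATPase of torsinA. Tor1aip1 had 27.9 and 25.3 TPM, between the 16.3 and 30.1 TPM of Tor1a, and Tor1aip2 had 34.2 and 30.8 TPM, just above them. The highest of the list by mean TPM were Syne1, encoding nesprin-1, at 90.1 ± 43.9, Sun2, its partner across the nuclear envelope, at 77.3 ± 5.11, and Emd, encoding emerin, at 70.6 ± 22.6. Their order was reversed in replicate 1, with Emd at 86.5, Sun2 at 81.0 and Syne1 at 59.0 TPM.

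Thap1 encodes a zinc-finger transcription factor whose mutations cause the dystonia DYT6 and which has been reported to bind the TOR1A promoter. Its position is chromosome 8, plus strand, 26158141 to 26164151 (ENSMUSG00000037214.12). Replicate 1 held 499 reads, 19.3 CPM (17.7 to 21.1), and replicate 2 held 242 reads, 8.18 CPM (7.18 to 9.28). The mean was 13.8 ± 7.87 CPM and 26.7 ± 13.6 TPM, above 46.0% of detected genes. Replicate 1 was the higher, with a log2 ratio of -1.21 (-1.44 to -0.99), 2.32-fold, and an adjusted p of 5.12e-28 by the exact binomial test. The interval reached just inside the 2-fold ratio. Thap1 and Tor1a therefore differed between the libraries in opposite directions, with 1 library on each side.

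Thap1 held 11.8% (10.8 to 12.8) of the reads of 7 THAP genes in replicate 1 and 6.82% (6.02 to 7.70) in replicate 2. Of the 11 listed THAP genes and partners 10 were found and 9 detected. Thap11 (log2 ratio -1.96) and Thap7 (-1.27) passed the test in the same direction as Thap1, and none of the 9 passed in the other (7.78% and 9.57% of all tested genes). The list had 5 genes lower in replicate 2, 4 higher and a median of -0.09. Hcfc1 and Ogt encode a transcriptional cofactor of THAP proteins and the glycosyltransferase that modifies it. They were well above Thap1, at 131 ± 52.7 and 166 ± 51.7 TPM, and higher in replicate 2 (log2 ratios 0.72 and 0.53, short of the required ratio). By mean TPM the highest THAP gene was Thap12, listed as Prkrir, at 74.1 ± 24.5 (56.8 and 91.4). Thap11, at 77.9 and 21.8 TPM, was above it in replicate 1, so their library values overlapped. Pawr, encoding the apoptosis protein Par-4, which binds THAP1, had 0 and 42 reads and was not tested.

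Sgce encodes epsilon-sarcoglycan, a membrane glycoprotein related to those that link the muscle cytoskeleton to the matrix, and its loss causes myoclonus-dystonia. The gene is imprinted and read from the paternal copy, as is its neighbour Peg10, a retrotransposon-derived gene. Sgce lies on chromosome 6 from 4674350 to 4747207 on the minus strand (ENSMUSG00000004631.15), and 98 bases separate its start from that of Peg10, which is read the other way. It held 1247 reads, 48.3 CPM (45.6 to 51.0), in replicate 1 and 1023 reads, 34.6 CPM (32.5 to 36.8), in replicate 2. Replicate 1 was the higher, with a log2 ratio of -0.45 (-0.58 to -0.33), 1.37-fold, and an adjusted p of 1.75e-13 by the exact binomial test, short of the required ratio. Over its 10612 annotated exon bases, which join the exons of all its transcripts, the mean was 22.3 ± 3.64 TPM, above 41.5% of detected genes. Over the 1776 bases of the longest protein-coding transcript it was 93.0 ± 14.5 TPM, which put Sgce above Thap1 and both torsins without overlap.

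Sgce held the largest share of sarcoglycan reads, with 56.3% (54.2 to 58.4) and 49.3% (47.1 to 51.5) of the reads of 6 sarcoglycan genes. Per kilobase of exon its share was 32.7% and 26.2%, below that of Sgcb (beta-sarcoglycan, 41.0 ± 3.45 TPM), and over the longest protein-coding transcripts it was 71.7% and 64.1%. Sgca, a muscle sarcoglycan gene, had 0 reads in both libraries, Sgcd had 1.33 ± 0.290 TPM, and Sgcz passed the test as higher in replicate 2 (3.68 and 7.74 CPM, log2 ratio 1.10). Of the 14 listed genes of the sarcoglycan and dystroglycan complex 11 were detected, Sgcz was the only one of the 11 past the test, against 17.4% of all tested genes, and their median log2 ratio was 0.19. Sspn, encoding sarcospan, had 17 and 139 reads and was left untested by the filter. The dystrobrevin gene Dtna (81.6 and 111 TPM), the dystroglycan gene Dag1 (87.3 ± 5.46), the dystrophin relative Utrn (84.1 ± 3.20) and Dtnb (59.9 ± 4.41) were the highest.

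Peg10 was far above Sgce and differed in the other direction. It had 712 and 1239 TPM (866 and 1362 CPM), a log2 ratio of 0.68 against -0.45 for Sgce, and Sgce made up 5.28% of the reads of the pair in replicate 1 and 2.48% in replicate 2. Of the 9 listed genes of this imprinted region 6 were detected, and their median log2 ratio was 0.51, with 1 lower and 5 higher in replicate 2. Calcr, encoding the calcitonin receptor, passed the test as higher in replicate 2 (7.16 and 18.8 CPM, log2 ratio 1.42), and none of the 6 passed in the other direction (9.57% and 7.78% of all tested genes). Asb4, with 25 and 144 reads, was not tested. Ppp1r9a, encoding the actin-binding protein neurabin, had 590 and 1010 TPM, Casd1 had 155 and 134 TPM, and Tfpi2 and Pon1 had 0 reads.

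**Figure D3:**
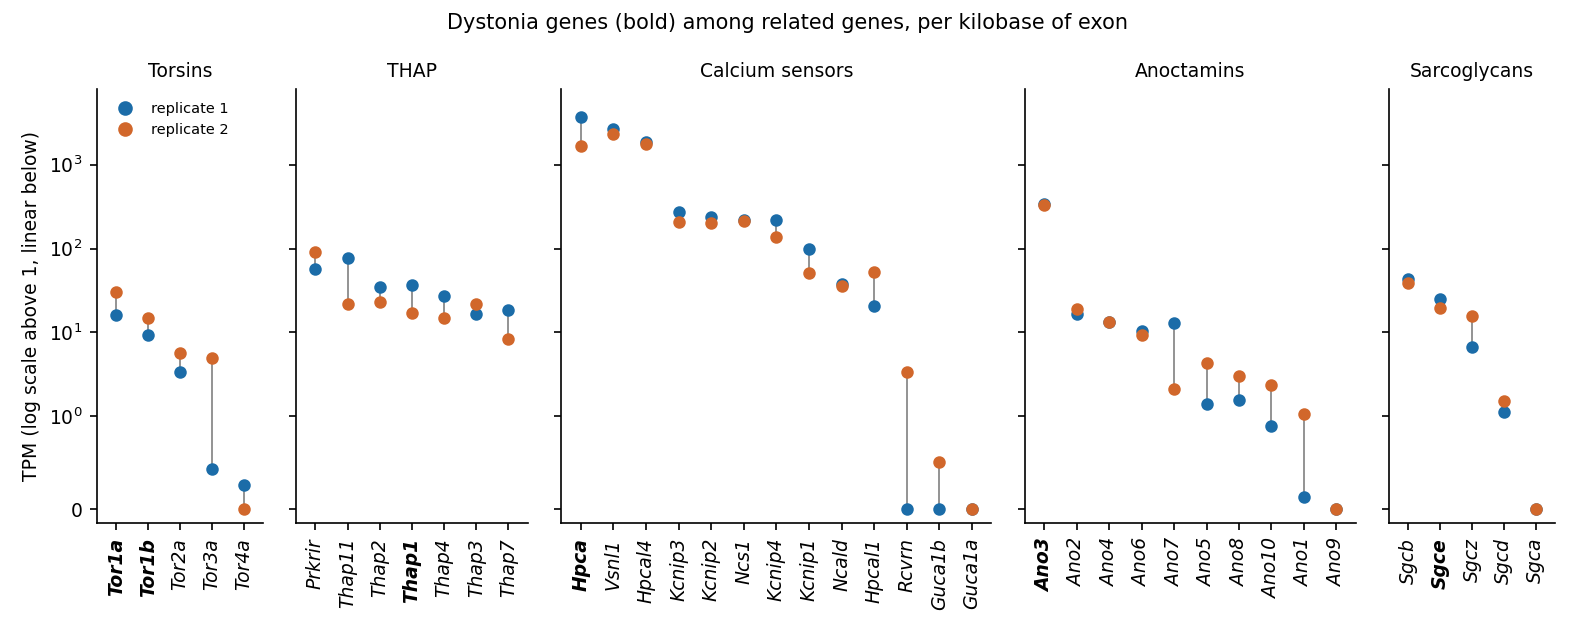
TPM (log scale above 1, linear below) of the dystonia genes (bold) and related genes in replicate 1 (blue) and replicate 2 (orange), by family, ordered by mean TPM within each. Ano3 stands more than an order of magnitude above the other anoctamins in both libraries, while Hpca (3694 and 1689 TPM), Vsnl1 and Hpcal4 lead the calcium sensors, in an order that in replicate 2 depends on the length used.

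Gch1 encodes GTP cyclohydrolase 1, the first and rate-limiting enzyme in the synthesis of tetrahydrobiopterin, the cofactor that tyrosine hydroxylase needs to make dopamine. Its partial loss causes dopa-responsive dystonia. The gene lies on chromosome 14 from 47153895 to 47189413 on the minus strand (ENSMUSG00000037580.10). It held 0 reads in replicate 1, which allows up to 0.143 CPM, and 3 reads in replicate 2, 0.101 CPM (0.0209 to 0.296). Replicate 1 lay below the floor of 3 reads and replicate 2 on it, so no ratio is given, and the gene was too low for the test. When genes with low counts were kept, the exact binomial test gave an adjusted p of 0.303. Gch1 was thus below the detection level of 1 CPM in both libraries, which does not show that it was absent.

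A list of 18 other genes covered those that make, recycle or use tetrahydrobiopterin and some related genes. The related ones were Gchfr, Dnajc12, Ddc, Slc18a2 and Slc6a3. Of the 18, 10 were detected, and their median log2 ratio was -0.12, with 6 lower and 4 higher in replicate 2. The next enzymes of synthesis were detected while Gch1 was not: Pts had 19.9 and 10.6 CPM and Spr 4.84 and 2.84 CPM. Over all exons the recycling genes Pcbd2 (130 ± 3.91 TPM) and Qdpr (98.3 ± 14.2) were above Pts (14.2 ± 5.15) and Spr (6.17 ± 1.85). The distance to Pts turned on the length used. Over the longest protein-coding transcripts Pts had 72.2 and 43.1 TPM, Qdpr 79.3 and 98.4, and Pcbd2 92.2 and 89.2. Pcbd1, at 96.4 and 18.2 TPM over that length, was below Pts in replicate 2. Pcbd1 was the only one of the 10 past the test, against 17.4% of all tested genes, with 517 reads in replicate 1 and 100 in replicate 2 (134 and 25.1 TPM, log2 ratio -2.54). Gchfr, encoding the feedback regulator of the Gch1 enzyme, had 0 and 19 reads and was not tested.

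Among users of the cofactor and genes of dopamine neurons, Th had 5.77 and 9.26 CPM, Ddc 8.56 and 15.8 CPM, Slc18a2, the vesicular monoamine transporter, 13.9 and 13.1 CPM, and Slc6a3, the dopamine transporter, 0.581 and 0.744 CPM. Of the 8 dopaminergic neuron markers 4 were detected, with summed levels of 31.2 and 41.1 CPM, and the midbrain regulators Pitx3, En1 and Lmx1b had 0 reads in both libraries. Of the other users of the cofactor, Tph1 and Nos2 had 0 reads as well, and Tph2 and Nos3 lay below 1 CPM in both libraries. Nos1 was detected, at 19.7 and 28.1 CPM.

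**Figure D4:**
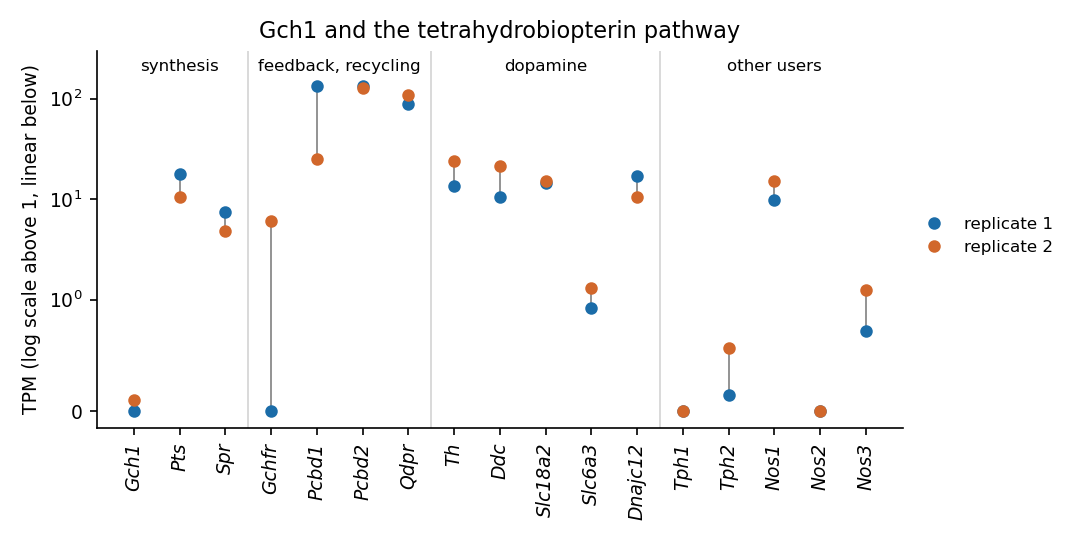
TPM (log scale above 1, linear below) of Gch1 and other genes of tetrahydrobiopterin synthesis, feedback, recycling and use in replicate 1 (blue) and replicate 2 (orange). A dopamine group holds Th, Ddc, Slc18a2, Slc6a3 and Dnajc12. Gch1 is at 0 and 0.0984 TPM, while Pcbd2 and Qdpr lie between 88.3 and 133 TPM.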

How the data were processed

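The authors deposited raw counts of reads per gene symbol, with STAR 2.0.0e, HTSeq and the build mm10 named in the submitters' processing notes. For the annotation, the strand setting and read filters, the sources used here give nothing, so reads of overlapping or antisense genes cannot be told apart. Totals exclude 6 lines with no gene name: reads outside genes were 22.8% and 31.0% of all counted, multiply aligned reads 27.9% and 13.6%, and ambiguous reads 1.84% and 2.08%.

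CPM is over all named genes. TPM uses the union of exons of GENCODE M21 (GRCm38), matched for 23780 symbols (11806 of the detected). Intervals are exact Poisson or Clopper-Pearson at 95% and cover counting error only, since reads carry no molecular identifiers. Library sizes for the exact binomial test (scipy 1.17.1, Benjamini-Hochberg) came from edgeR 4.0.16. Coding sequences were aligned with Biopython 1.88.

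The genes and lists were chosen with earlier results of these data known. All 8 genes are named. Of each list the text takes from the 4 highest and the lowest per kilobase and those past the test. Other list genes named were picked once their values were known. Among these were Tor1aip1, Tor2a, Tor3a, Drd1, Ncs1, Sgcb, Sgcd, Sspn, Asb4, Col6a3, Pts, Spr, Gchfr, Ddc, Slc18a2, Nos1, Nos3 and Tph2. Some list genes enter the counts but are not reported here by name. With 2 libraries of 1 group, no gene was named for a similar pattern. Alternatives covered scaling (DESeq2 1.42.0 size factors, totals, totals without Rn45s), detection, ratio, length and each library alone.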

Additional observations from a re-analysis of the deposited data

How the results depend on the processing

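With a single library in place of the mean, Hpca was at 814 or 1970 CPM (mean 1392), Thap1 at 8.18 or 19.3 (mean 13.8) and Gch1 at 0.101 or 0 (mean 0.0507), so these means rest on libraries that differ. With totals that leave out Rn45s the mean of Hpca was 1492 CPM and that of Thap1 14.7. Other scalings shift all log2 ratios alike (the median of all genes was -0.03 with total counts and 0.00 with TMM), and a filter on low counts leaves a gene's own ratio as it is, so these alternatives do not test how stable the ratios are. With at least 10 CPM required in both libraries 4 genes were detected in place of 7, since Thap1, Tor1a and Tor1b lie below it in at least 1 library, and the number was 7 at 5 CPM and in each library alone. Of the 7 tested genes, 2 passed the test between the libraries at a ratio of 2-fold and 7 with no minimum ratio. Among all tested genes the shares were 17.4% and 78.9%. At 1.5-fold 4 of the 7 passed, and the share of all tested genes at that ratio was not computed. Under total or DESeq2 scaling 2 passed at 2-fold, beside 17.4% and 17.3% of all tested genes. Tor1a was 41.4% of the reads of Tor1a and Tor1b (39.7% to 43.2% with a library left out), 65.4% per kilobase of exon, and 60.5% per kilobase of the longest protein-coding transcript, a length chosen after seeing the data. The order depended on length: of 24 alternative ranks 12 changed, among them Sgce, at rank 6 per kilobase of exon and rank 4 under each alternative, while Hpca and Gch1 were first and last in all. The place of Hpca above Vsnl1 and Hpcal4 in replicate 2 held over the longest protein-coding transcripts (1873 against 1659 and 1326 TPM) and not over all exons (1689 against 2302 and 1748 TPM). For Gch1, the 0 reads in replicate 1 allow up to 0.143 CPM at this depth.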

Other observations

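A wider list of 26 other dystonia genes held 24 detected ones, whose median log2 ratio was 0.12 (0.00 over all tested genes), with 7 lower and 17 higher in replicate 2. The genes of striatal dopamine signalling were among the high ones: Gnal, encoding the G protein alpha subunit that couples the dopamine receptor Drd1 to adenylyl cyclase, had 1277 ± 53.2 TPM (SD, n = 2), and Adcy5, encoding that cyclase, 254 ± 16.0 TPM, the latter chosen after its values were seen. Tubb4a, a beta-tubulin gene, had 2244 ± 284 TPM, and Gnao1, encoding another G protein subunit, 808 ± 6.69 TPM. Ano3 (334 ± 3.26 TPM) stood between Gnao1 and Adcy5. Slc6a3 was the lowest at 1.11 ± 0.272 TPM.

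The genes of this list past the test between the libraries were Eif2ak2, encoding the RNA-activated kinase PKR, and Prkra, encoding the activator of that kinase. Eif2ak2 had 26 reads in replicate 1 and 174 in replicate 2 (log2 ratio 2.57), and Prkra had 27 and 99 (1.71). Both were near the detection level in replicate 1, at 1.01 and 1.05 CPM. The 2 genes stand beside 9.57% of all tested genes that passed in this direction. None of the 24 tested genes passed as higher in replicate 1 (7.78% of all tested genes), but Col6a3, encoding a collagen chain, had 139 and 25 reads (5.38 and 0.845 CPM) and was left untested by the requirement of 1 CPM in both libraries.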
